A study of Mus musculus with 2 samples.

Results

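The interleukins, the tumour necrosis factor (TNF) superfamily, the colony-stimulating factors and their receptors were described in Hepa1-6 cells, a mouse liver tumour line labelled C57bl/6, of which 2 stable derivatives were compared. One line had been infected with an IRF8-overexpression-GFP-Puro lentivirus (IRF8-OE) and the other with a vector control-GFP-Puro lentivirus (Vector), in each case for 24 h with selection in 2 µg/ml puromycin, so that both lines carried the GFP and puromycin cassettes. RNA-seq gave read counts per gene, with 1 library for each line. Members were the protein-coding rows of the gene table whose symbol begins with Il and a digit, Tnfsf, Tnfrsf or Csf1 to Csf3, or is Lif, Lifr, Osm, Osmr, Ltb or Tnf. These were 130 of 52636 rows, with 128 distinct symbols because Il11ra2 has 3 rows. By name 58 were ligands (with the antagonist Il1rn among them), 70 were receptors, and 2 were neither, namely the binding protein gene Il18bp and the enzyme gene Il4i1.

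Interleukins and colony-stimulating factors are secreted proteins that mostly signal through receptor chains without enzymes of their own, which recruit JAK kinases and STAT factors, while the IL-1 and IL-17 receptors recruit MyD88 or Act1 and reach NF-kB. TNF superfamily ligands are mostly trimers made as membrane proteins, and their receptors recruit TRAF adaptors or, for the death receptors, FADD and caspase-8. In liver, hepatocytes answer IL-6, LIF, IL-1, IL-22 and TNF with acute-phase, survival or death programmes, and the ligands come largely from Kupffer cells, lymphocytes and stressed epithelium. IRF8 itself is an interferon regulatory factor of myeloid and B cells, and several cytokine genes of those cells are known targets of it.

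Totals were 20042660 counted reads for the IRF8-OE library and 18118017 for the Vector library, and levels are in CPM on a library size scaled by the TMM method. Irf8 had 1486 counts in the IRF8-OE library and 1010 in the Vector library. The IRF8-OE level was 1.22 times the Vector level (95% counting interval 1.13 to 1.32), short of the size rule below. Whether reads of the introduced IRF8 sequence are among those counts is not known from the sources used here. With 1 library a group there is no replicate check and no p-value, and the intervals given cover counting error alone. A gene counts as measured at a mean of at least 1 CPM, and it is called higher or lower by a size rule, which asks for a ratio of at least 2 (or at most 0.5) and an exact 95% interval that leaves out 1. Of 13 hepatocyte and hepatoma markers 9 were measured, 0 higher and 3 lower (Alb, Afp and Trf). Over all measured genes 4.27% were higher and 3.64% lower. Ratios were under 1 in 8 of the 9, against 6124 of all 12468 measured genes. The list summed to 3636 CPM in the IRF8-OE library and 5417 in the Vector library. Most of this was Krt8 and Krt18, at 1404 and 1638 CPM in the IRF8-OE library and 2060 and 2273 in the Vector library. Of the markers not measured, Ttr and Cps1 each had 0 counts in the IRF8-OE library and 2 in the Vector library. The others went the opposite way, Apoa1 with 15 counts in the IRF8-OE library and 3 in the Vector library, and Serpina1a with 6 and 1. All 12 lymphoid marker rows were under 1 CPM on average, Cd3e and Cd4 among those with 0 counts in both libraries. Of 16 myeloid marker rows 4 were measured (Cd14, Cd68, Csf1r and Lyz2), with none past the size rule. The 16 rows summed to 50.7 CPM in the IRF8-OE library and 66.7 in the Vector library. Most of this was Cd14, at 30.4 CPM in the IRF8-OE library and 41.6 in the Vector library. Adgre1, Tyrobp and Itgax had 0 counts in both, while Spi1 had 2 counts in the IRF8-OE library and 17 in the Vector library. Of 12 endothelial and stellate markers 4 were measured, Rgs5 and Col1a1 higher and Vwf lower, with sums of 15.5 CPM in the IRF8-OE library and 10.1 in the Vector library. All 4 had means of 1 to 10 CPM, where 12.5% of all genes were higher and 7.46% lower. The part of these lists in the results on cytokine genes was not tested. In bulk RNA fewer cells of a type and less RNA per cell cannot be told apart.

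Of the 130 members, 39 had 0 counts in both libraries (30.0%, against 30.4% of all 22027 protein-coding genes). The other 91 had a count, and 50 were measured: 17 ligands, 32 receptors and Il18bp. The share not measured was 61.5% of members and 49.5% of protein-coding genes. Tnf, Il1b, Il2, Il10, Il12a, Il12b, Il13, Il17a, Il21, Il22, Il27 and Osm were among the 22 ligands with 0 counts in both libraries. For a count of 0, 3 counts are about the 1-sided 95% limit. They equal 0.143 CPM in the IRF8-OE library and 0.173 CPM in the Vector library. The exact Poisson 95% intervals given for levels end at 0.176 and 0.212 CPM for a count of 0. Il6 had 3 counts in the IRF8-OE library and 0 in the Vector library, and Il1a had 0 in the IRF8-OE library and 1 in the Vector library. Among receptors, 17 rows had 0 counts in both, including Il2rg, the common gamma chain, Il10ra, Il21r, Il2ra, Csf3r and Tnfrsf11a.

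The measured ligand genes were dominated by Csf1 and Lif. Csf1, the growth factor of macrophages, stood at 219 CPM (213 to 226, exact Poisson 95% interval) in the IRF8-OE library and 168 (162 to 174) in the Vector library. Its share of all ligand counts was 51.8% in the IRF8-OE library and 33.0% in the Vector library. All ligand counts together came to 424 CPM in the IRF8-OE library and 508 in the Vector library. Receptor counts came to 1211 CPM in the IRF8-OE library and 1561 in the Vector library, of which Tnfrsf12a alone made up 36.2% in the IRF8-OE library and 48.6% in the Vector library. Per kilobase of listed gene length, Csf1 and Lif stood at 41.5 and 15.9 CPM in the IRF8-OE library, against 31.8 and 37.5 CPM in the Vector library, so that the order of these levels differed between the lines.

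**Figure D1:**
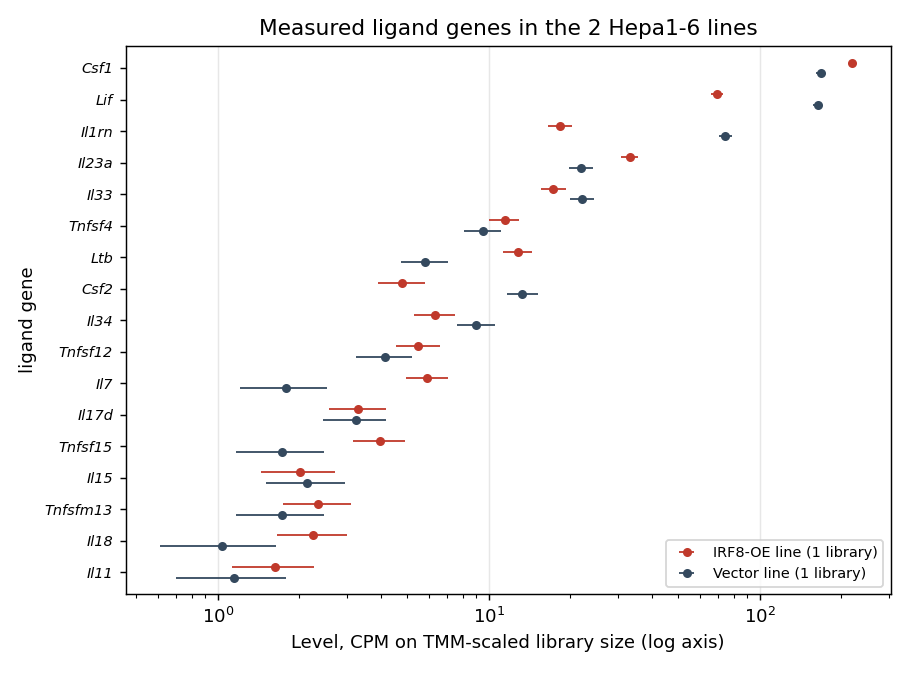
Level of each of the 17 measured ligand genes (vertical axis) in CPM on a log axis, with the IRF8-OE library drawn above the Vector library and bars for exact Poisson 95% intervals. Csf1 lies at the top in both, and the widest gap is that of Il1rn, at 18.4 CPM in the IRF8-OE library and 74.6 in the Vector library.

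By the size rule 8 measured members were higher and 5 lower in the IRF8-OE library, or 16.0% and 10.0% of the 50 measured. Over all 12468 measured genes the shares were 4.27% and 3.64%, so that 54.0% of all calls were higher, against 66.1% with scaling by total counts and 41.6% with the trend of ratios on expression level removed. Calls are more frequent at low levels, and of the measured members 26 had a mean of 1 to 10 CPM. In that band 26.9% of members were higher and 11.5% lower, against 12.5% and 7.46% of all 3296 genes. From 10 CPM upwards, 1 of 24 members was higher and 2 were lower, against 1.31% and 2.27% of all 9172 genes. No member list was tested against the other genes.

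Among the ligands, 4 were higher (Il7, Tnfsf15, Ltb and Il18), 3 were lower (Il1rn, Csf2 and Lif) and 10 did not pass the rule. The shares were 23.53% and 17.65% of 17, against 4.27% and 3.64% of all measured genes. The 4 higher ligands and Csf2 had means of 1 to 10 CPM, where 12.5% of all genes were higher and 7.46% lower. The median log2 ratio of the 17 was 0.39, against 0.01 over all measured genes, but it was -0.35 when a mean of 5 CPM was asked, where Ltb was the 1 higher ligand left beside the 3 lower ones. The ligand with the largest difference was Il1rn, the antagonist that occupies the IL-1 receptor without signalling (ENSMUSG00000026981, mm10 chr2:24336853-24351494, plus strand). It had 384 counts, or 18.4 CPM (16.6 to 20.3), in the IRF8-OE library and 1296 counts, or 74.6 CPM (70.6 to 78.8), in the Vector library. It was 4.06-fold lower in the IRF8-OE library (3.62 to 4.57). The agonists of the same receptor were not measured in either line.

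Lif, a cytokine of the IL-6 family that signals through LIFR and gp130, was the other abundant ligand past the rule (ENSMUSG00000034394, mm10 chr11:4257557-4272514, plus strand). It stood at 69.3 CPM (65.8 to 73.0) in the IRF8-OE library on 1449 counts, and at 163 CPM (157 to 169) in the Vector library on 2835. It was 2.36-fold lower (2.21 to 2.51). Csf2, which encodes GM-CSF (ENSMUSG00000018916, mm10 chr11:54247271-54249667, minus strand), had 100 counts in the IRF8-OE library and 231 in the Vector library. That put it at 4.78 CPM in the IRF8-OE line and 13.3 CPM in the Vector line, 2.78-fold lower (2.19 to 3.55). An annotated gene on the opposite strand, Gm12223, covers 12% of the exon bases of Csf2, with the strand setting of the counting not given in the sources used here.

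The higher ligands were scarcer. Il7, the survival factor of lymphocyte precursors, had 124 counts in the IRF8-OE library and 31 in the Vector library and was 3.32-fold higher (2.23 to 5.10). Its level was 5.93 CPM (4.93 to 7.07) in IRF8-OE and 1.79 CPM (1.21 to 2.53) in Vector. Tnfsf15 (TL1A, ligand of DR3) had 83 counts in the IRF8-OE library and 30 in the Vector library and was 2.30-fold higher (1.5 to 3.61). Ltb, the membrane-anchoring chain of lymphotoxin, had 268 counts in the IRF8-OE library and 101 in the Vector library, a 2.20-fold difference (1.75 to 2.80). Il18, an IL-1 family cytokine released after caspase-1 cleavage, stood at 47 counts in the IRF8-OE library and 18 in the Vector library, with 2.17-fold (1.24 to 3.97). Il18 did not pass with the stricter interval tried, and with the trend removed both Il18 (1.93) and Tnfsf15 (1.98) came under 2.

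Below the measured range, Tnfsf10, which encodes TRAIL, had 19 counts in the IRF8-OE library and 4 in the Vector library (3.94, 1.31 to 15.9). Il1f9 (IL-36 gamma) had 0 counts in the IRF8-OE library and 8 in the Vector library. Both met the fold and interval conditions without the filter on low values and were named after their values were seen.

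The other measured ligands did not pass the rule. Il23a, which encodes the chain specific to IL-23, stood at 33.1 CPM in the IRF8-OE library and 21.8 in the Vector library (ratio 1.52, 1.34 to 1.72). The alarmin Il33 stood at 17.3 CPM in the IRF8-OE library and 22.1 in the Vector library (0.785, 0.678 to 0.909). Il34, the second ligand of CSF1R, had 6.31 CPM in the IRF8-OE library and 8.98 in the Vector library (0.703, 0.553 to 0.892), and the ratio of Csf1 was 1.31 (1.25 to 1.37). Both CSF1R ligands thus had intervals that left out 1, on opposite sides of it. Tnfsf4 (OX40 ligand), Il17d, Il15 and Il11 had intervals that included 1.

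**Figure D2:**
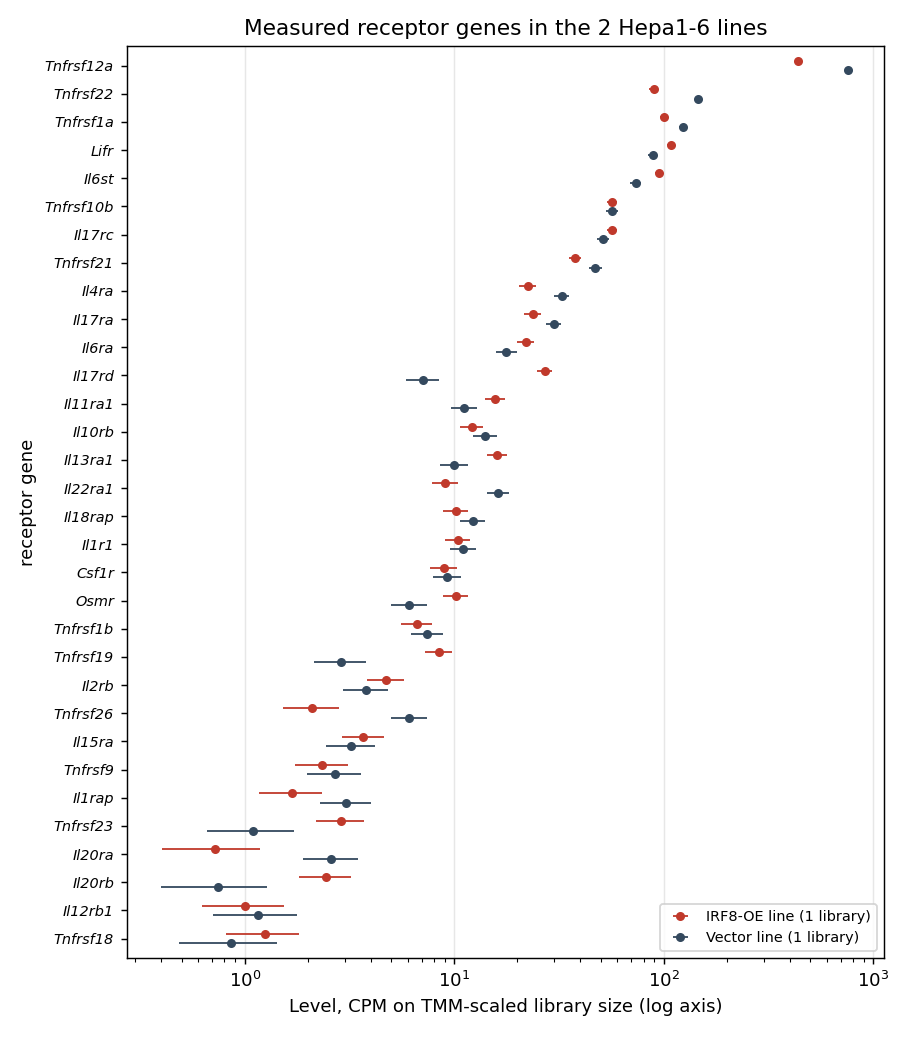
Level of each of the 32 measured receptor genes (vertical axis) in CPM on a log axis, with the IRF8-OE library drawn above the Vector library and bars for exact Poisson 95% intervals. Tnfrsf12a is highest in both libraries at 438 CPM in the IRF8-OE library and 758 in the Vector library, and Il17rd is the gene above 10 CPM with the widest gap.

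Among receptors, 4 were higher (Il17rd, Il20rb, Tnfrsf19 and Tnfrsf23), 2 were lower (Il20ra and Tnfrsf26) and 26 did not pass. Those shares, 12.5% and 6.25% of 32, stand beside the 4.27% and 3.64% of all measured genes given above. All called receptors except Il17rd had means of 1 to 10 CPM, where 12.5% of all genes were higher and 7.46% lower. The median log2 ratio of the measured receptors was -0.08 (0.047 with scaling by total counts, a change of sign). Il17rd, a member of the IL-17 receptor family known as SEF and as an inhibitor of FGF and ERK signalling, differed most (ENSMUSG00000040717, mm10 chr14:27038941-27107286, plus strand). It had 566 counts, or 27.1 CPM (24.9 to 29.4), in the IRF8-OE library and 123 counts, or 7.08 CPM (5.89 to 8.45), in the Vector library. The ratio was 3.82 (3.14 to 4.68). The other measured receptors of the family, Il17ra and Il17rc, which form the receptor of IL-17A, had ratios of 0.793 (0.700 to 0.899) and 1.11 (1.01 to 1.21). Il17rb had 4 counts in the IRF8-OE library and 0 in the Vector library, and Il17re had 3 in the IRF8-OE library and 0 in the Vector library.

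The 2 chains of the IL-20 receptor passed the rule in opposite directions. Il20ra had 15 counts, or 0.717 CPM (0.401 to 1.18), in the IRF8-OE library and 45 counts, or 2.59 CPM (1.89 to 3.47), in the Vector library, 3.61-fold lower (1.98 to 6.98). Il20rb had 51 counts, or 2.44 CPM (1.82 to 3.21), in the IRF8-OE library and 13 counts, or 0.749 CPM (0.399 to 1.28), in the Vector library, 3.26-fold higher (1.75 to 6.53). Each lay under 1 CPM in 1 of the libraries and was measured through the other. IL-22RA1 can replace IL-20RA beside IL-20RB, and pairs with IL-10RB to bind IL-22. Il22ra1 stood at 9.04 CPM in the IRF8-OE library and 16.2 in the Vector library (0.559, 0.462 to 0.674), short of the rule. Il10rb had a ratio of 0.864 (0.722 to 1.03), with 20.7% of its 32-base words also found in other annotated transcripts. Of the ligands, Il24 had 12 counts in the IRF8-OE library and 18 in the Vector library, Il19 had 2 in the IRF8-OE library and 1 in the Vector library, and Il20 and Il22 had 0 in both.

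TNF receptor superfamily members covered the widest range of levels. Tnfrsf12a, the TWEAK receptor Fn14, had 9167 counts in the IRF8-OE library and 13168 in the Vector library. At 438 CPM (429 to 447) in the IRF8-OE library and 758 (745 to 771) in the Vector library, its ratio was 0.578 (0.563 to 0.594), short of the rule. Per kilobase it stood at 455 CPM in the IRF8-OE library and 787 in the Vector library, the highest level per length of any member in both. The death receptor genes were also present, with Tnfrsf1a (TNFR1) at 100.1 CPM in the IRF8-OE library and 123 in the Vector library (0.814, 0.766 to 0.865). Tnfrsf10b, the mouse TRAIL receptor, had a ratio of 0.999 (0.917 to 1.09). Of the 11 measured genes of the superfamily 8 had ratios under 1, or 7 with any of the other 3 scalings, where Tnfrsf10b crosses 1. The interval lay below 1 in 5 of the 11 and above 1 in 2. Over all 12468 measured genes, 6124 ratios were under 1, and how many of all intervals left out 1 was not counted. The intervals cover counting error alone and are narrow for abundant genes, so the counts of 5 and 2 have no background beside them. Tnfrsf21 (DR6) had a ratio of 0.799 (0.724 to 0.882), and the second TNF receptor gene, Tnfrsf1b, 0.895 (0.699 to 1.15). Tnfrsf19 (TROY), an orphan receptor that binds TRAF adaptors, was higher, with 176 counts in the IRF8-OE library and 50 in the Vector library (2.92, 2.12 to 4.09).

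Tnfrsf26, Tnfrsf22 and Tnfrsf23 lie next to each other on the minus strand of mm10 chromosome 7, with gaps of 6.1 and 16.1 kb, and gave different ratios. Tnfrsf22 and Tnfrsf23 encode mouse decoy receptors of TRAIL. Tnfrsf26 had 44 counts in the IRF8-OE library and 106 in the Vector library, 2.90-fold lower (2.02 to 4.22). Tnfrsf22 had 1869 counts in the IRF8-OE library and 2531 in the Vector library (ratio 0.613, 0.577 to 0.651). Tnfrsf23 had 60 counts in the IRF8-OE library and 19 in the Vector library, 2.62-fold higher (1.54 to 4.65). Tnfrsf22 shares 38.5% of its 32-base words with other annotated transcripts and Tnfrsf23 33.6%, each mainly with the other, so the split of reads between these genes is uncertain. Their summed counts, 1929 in the IRF8-OE library and 2550 in the Vector library, gave 0.628 (0.592 to 0.667).

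Receptors of the IL-6 family had ratios above 1 in each of the 5 measured genes, and each interval left out 1, although no gene reached 2. Over all 12468 measured genes, 6344 ratios were above 1, and how many of their intervals left out 1 was not counted. The intervals cover counting error alone, so that they are narrow for abundant genes. Lifr stood at 108 CPM in the IRF8-OE library and 88.5 in the Vector library (1.22, 1.14 to 1.3). Il6st, which encodes the shared chain gp130, stood at 94.4 CPM in the IRF8-OE library and 73.2 in the Vector library (1.29, 1.2 to 1.38). Osmr, the chain for oncostatin M, had the largest ratio of the group at 1.66 (1.31 to 2.12), and Il6ra had 1.23 (1.07 to 1.43). Il11ra1 had 1.40 (1.17 to 1.68), but 69.5% of its 32-base words occur in other transcripts, its near copies Il11ra2 and Gm13305 among these. All 5 ratios stayed above 1 with scaling by total counts, with DESeq2 size factors and with the expression trend removed. Lif, whose receptor the first pair forms, was the lower ligand described above, and Il11 (34 counts in the IRF8-OE library, 20 in the Vector library) had 1.41 (0.790 to 2.59).

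Of the other receptors, Il4ra and Il13ra1, which together bind IL-4 and IL-13 on epithelial cells, had intervals on opposite sides of 1. Il4ra stood at 22.4 CPM in the IRF8-OE library and 32.6 in the Vector library (0.687, 0.606 to 0.777). Il13ra1 stood at 16.0 CPM in the IRF8-OE library and 10.0 in the Vector library (1.60, 1.33 to 1.93). Il1r1, the signalling IL-1 receptor, had 0.939 (0.769 to 1.15), while its partner chain Il1rap had 35 counts in the IRF8-OE library and 53 in the Vector library (0.548, 0.347 to 0.856). Csf1r, the receptor of Csf1 and Il34, had 0.959 (0.773 to 1.19) on 186 counts in the IRF8-OE library and 161 in the Vector library. A gene on the opposite strand, Hmgxb3, covers 15.1% of its exon bases, and those reads were not separated here. Il2rb, Il15ra, Il12rb1 and Tnfrsf18 had intervals that included 1, as did Tnfrsf9 at 49 counts in the IRF8-OE library and 47 in the Vector library. The decoy gene Il18bp, the measured member that is neither ligand nor receptor, had 43 counts in the IRF8-OE library and 25 in the Vector library (1.43, 0.853 to 2.44).

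**Figure D3:**
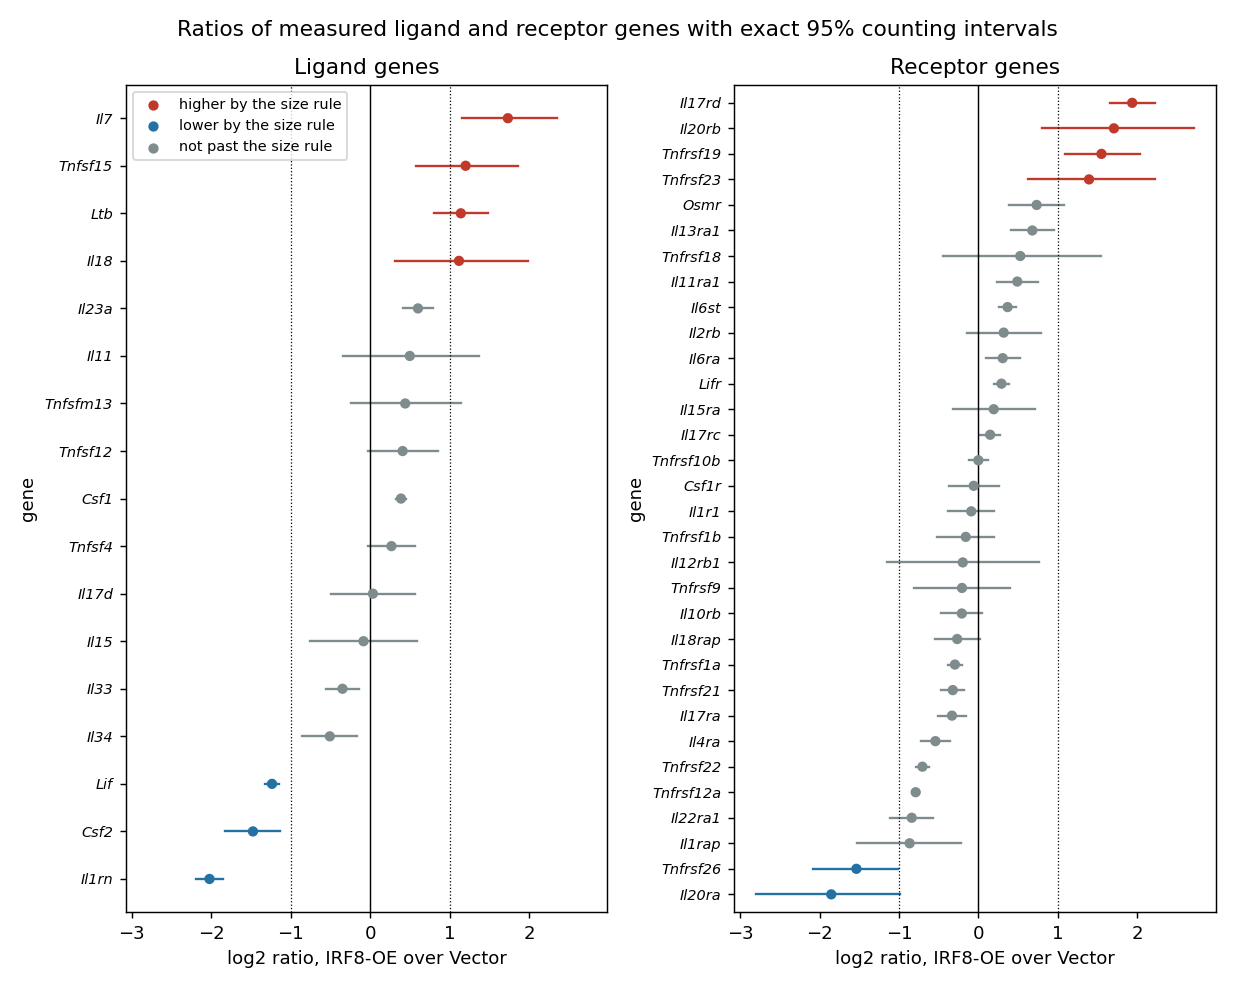
Log2 ratio of the IRF8-OE library over the Vector library (horizontal axis) for the 17 measured ligand genes and the 32 measured receptor genes, with exact 95% counting intervals as lines and dotted lines at the fold of 2. The genes past the size rule are 4 higher and 3 lower ligands and 4 higher and 2 lower receptors, and Il20ra and Il20rb stand near opposite ends.

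Several ligand genes were counted without a measured partner. For Ltb and Il23a the partner is a second subunit, and for the others it is a receptor chain in the same cells. Ltb reaches the cell surface as a trimer with lymphotoxin alpha, and Lta had 0 counts in both libraries, while the receptor gene Ltbr stood at 151 CPM in the IRF8-OE library and 188 in the Vector library. IL-23 is a dimer of the Il23a and Il12b products, and Il12b had 0 counts in both. Of the receptor of Il7, Il7r had 0 counts in the IRF8-OE library and 1 in the Vector library, and Il2rg had 0 in both. For Csf2, Csf2ra had 5 counts in the IRF8-OE library and 0 in the Vector library, and the signalling chain Csf2rb had 0 in the IRF8-OE library and 2 in the Vector library. The IL-18 receptor was split, with 213 counts of Il18rap in each library and 0 of Il18r1. Tnfrsf25, the receptor of Tnfsf15, had 7 counts in the IRF8-OE library and 6 in the Vector library.

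Other ligands met a measured receptor in the same cells. Csf1 and Il34 had Csf1r, Lif had Lifr and Il6st, Il11 had Il11ra1 and Il6st, and Il1rn had Il1r1. Tnfsf12, which encodes TWEAK, had 115 counts in the IRF8-OE library and 72 in the Vector library (1.33, 0.980 to 1.81), beside the far more abundant Tnfrsf12a. Its counts overlap with those of the read-through gene Tnfsfm13, which covers 48.3% of its exon bases. Summed with Tnfsfm13 and Tnfsf13, its counts were 171 in the IRF8-OE library and 114 in the Vector library (1.25, 0.977 to 1.59). Il15 (42 counts in the IRF8-OE library, 37 in the Vector library) had Il15ra and Il2rb, at ratios of 1.14 (0.799 to 1.64) and 1.25 (0.903 to 1.73), but lacked Il2rg.

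Neighbouring members were often counted very differently. In the genome 62 members lie in 24 groups with gaps of at most 200 kb. Lif lies 16.5 kb from Osm, which had 0 counts, and Csf2 lies 15.6 kb from Il3, also at 0. Ltb lies 3.1 kb from Tnf at 0, and Tnfsf15 86.2 kb from Tnfsf8, with 0 counts in the IRF8-OE library and 1 in the Vector library. In the IL-1 cluster of chromosome 2, Il1rn was the 1 measured gene of 6, and the others had at most 8 counts in either library. In the receptor cluster of chromosome 1, Il1r1 and Il18rap were measured, whereas Il1rl2 and Il18r1 between these had 0 counts, and Il1rl1, which encodes the IL-33 receptor ST2, had 15 counts in the IRF8-OE library and 14 in the Vector library.

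Promoter sequences of RefSeq (GRCm38.p6) were searched for 4 motifs on both strands: an IRF element (GAAA, any 2 bases, GAAA), the composite element that ETS factors share with IRF8 or IRF4 (GGAA, any 2 bases, GAAA), the AP-1 element TGANTCA, which can read the same on both strands, and an NF-kB element (GGGA, any 4 bases, CC). The windows ran from 250 bases before to 50 after each start, and 100 of the 128 symbols had one, 11 of the 13 members past the rule among them. The sequences below show the promoters that held an AP-1 match among lower members, with Ltb and Il20rb, the higher members with an NF-kB match. Csf2 and the other starts of Il1rn, without an AP-1 match, are not shown. The printed sequences were picked by their matches, so their difference in AP-1 follows from that choice. They give the 250 bases before the start, 5′ to 3′ on the gene's strand, with matches to any of the 4 motifs in capitals. They lie at chr11:4257318-4257567 (plus), chr2:24336610-24336859 (plus, the first of 3 starts), chr10:19712337-19712586 (plus), chr9:100486474-100486723 (minus) and chr17:35194257-35194506 (plus).
Lif: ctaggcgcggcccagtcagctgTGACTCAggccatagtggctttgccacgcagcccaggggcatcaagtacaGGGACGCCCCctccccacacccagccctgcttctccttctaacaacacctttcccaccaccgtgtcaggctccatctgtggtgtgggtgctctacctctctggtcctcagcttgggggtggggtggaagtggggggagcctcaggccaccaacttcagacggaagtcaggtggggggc
Il1rn: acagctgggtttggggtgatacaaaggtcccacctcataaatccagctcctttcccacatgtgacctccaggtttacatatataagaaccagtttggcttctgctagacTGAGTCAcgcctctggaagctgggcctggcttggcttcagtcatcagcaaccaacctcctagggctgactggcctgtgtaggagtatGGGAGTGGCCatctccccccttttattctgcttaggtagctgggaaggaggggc
Il20ra: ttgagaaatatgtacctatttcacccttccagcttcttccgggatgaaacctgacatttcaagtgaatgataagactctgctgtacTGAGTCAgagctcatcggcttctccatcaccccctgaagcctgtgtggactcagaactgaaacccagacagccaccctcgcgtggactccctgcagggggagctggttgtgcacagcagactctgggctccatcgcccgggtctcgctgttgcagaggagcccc
Il20rb: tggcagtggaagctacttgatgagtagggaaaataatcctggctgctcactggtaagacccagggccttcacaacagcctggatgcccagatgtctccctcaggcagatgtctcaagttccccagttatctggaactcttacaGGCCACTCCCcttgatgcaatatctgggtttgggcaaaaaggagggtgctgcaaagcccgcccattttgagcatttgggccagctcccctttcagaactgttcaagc
Ltb: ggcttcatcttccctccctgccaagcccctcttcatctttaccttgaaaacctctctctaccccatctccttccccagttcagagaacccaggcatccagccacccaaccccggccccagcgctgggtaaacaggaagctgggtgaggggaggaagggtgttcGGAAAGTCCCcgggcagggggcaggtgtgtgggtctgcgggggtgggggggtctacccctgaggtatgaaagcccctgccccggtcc

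In Lif the first match is the AP-1 element, beginning 228 bases before the start, and the second an NF-kB element 178 bases before it. Il1rn holds an AP-1 element at 141 bases and an NF-kB element at 54 bases before its start, and Il20ra an AP-1 element at 164 bases. The capitals in Il20rb and Ltb are NF-kB elements on the other strand. Csf2 has one 22 bases after the RefSeq start used. The window before that start, chr11:54249900-54250149, lies upstream of the gene coordinates given above, so their own 5′ end was not searched. An AP-1 match was found in 3 of the 4 lower genes with a promoter and in 0 of the 7 higher genes. It was found in 5 of the 25 measured members that did not pass the rule. Over all members with a promoter the count was 21 of 100 genes, and over all 27025 genes the share was 8.97%. A gene counts here if any of its promoters holds the match, and by promoter the lower genes had 3 of 6. NF-kB matches were found in 3 of the 4 lower genes, 2 of the 7 higher genes and 10 of the 25 others. Over all members with a promoter the count was 34 of 100, against 22.9% of all genes. Neither IRF element was present in these windows for any member past the rule, against 3.99% of all genes for the IRF element and 3.16% for the composite one. Among the 25 other members, Il1rap and Tnfrsf1b held the IRF element and Il6st the composite one. A match is a description of letters and not a site in use, the numbers are small, and the motifs were chosen with earlier results known.

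Signal transducers of these receptors were read from 3 lists, with 19 of 22 measured JAK-STAT genes, 21 of 22 TNF receptor adaptors and 14 of 16 IL-1 and IL-17 adaptors at a mean of 10 CPM or more. In that range 1.31% of all genes were higher and 2.27% lower, so counts near 0 in lists of this size are close to the background. Of 22 measured JAK, STAT and SOCS genes with related phosphatases and PIAS genes, 0 were higher or lower. There were 16 ratios above 1, against 6344 of all 12468 measured genes, and the median log2 ratio was 0.24. The kinase gene Jak2 had 1.59 (1.51 to 1.68), and Socs7 had 0.585 (0.554 to 0.618), the gene of the list with its interval farthest from 1. Socs3, the feedback inhibitor induced by STAT3, had 1.2 (1.09 to 1.31). Of 22 measured TNF receptor adaptors and effectors, 0 passed, with a median of -0.08. Map3k14, the NIK kinase of the non-canonical NF-kB route, had 1.91 (1.75 to 2.08), and Tnfaip3, the NF-kB feedback enzyme also called A20, had 0.576 (0.537 to 0.619). Of 16 measured adaptors of IL-1 and IL-17 receptors, 1 was higher and 0 were lower. The higher one, the ubiquitin ligase gene Peli2, had 86 counts in the IRF8-OE library and 32 in the Vector library (2.23, 1.47 to 3.46). Its mean was 2.98 CPM, and at 1 to 10 CPM 12.5% of all genes were higher. Ratios were under 1 in 9 of the 16, against 6124 of all 12468 measured genes, and the median log2 ratio was -0.16. Tab1 had 0.536 (0.484 to 0.592), the gene of the list with its interval farthest from 1.

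Family genes whose symbols fall outside the naming rule were read from a list of 33, of which 14 were measured, 7 of these at a mean of 1 to 10 CPM. Of the 14, 2 were higher and 1 lower (14.3% and 7.14%), all 3 in that lower band, where 12.5% of all genes were higher and 7.46% lower, so the counts were close to the background. Eda, a TNF superfamily ligand of skin appendage development, was higher, with 74 counts in the IRF8-OE library and 17 in the Vector library (3.61, 2.11 to 6.53). The erythropoietin receptor gene Epor was also higher, on 49 counts in the IRF8-OE library and 15 in the Vector library (2.71, 1.5 to 5.21). Each was under 1 CPM in the Vector library and was measured through the IRF8-OE library. Thpo, the liver-made growth factor of platelets, was lower, with 51 counts in the IRF8-OE library and 122 in the Vector library (0.347, 0.245 to 0.485). The death receptor gene Fas had 1.75 (1.39 to 2.23) and Cd40 0.691 (0.558 to 0.855), both short of the rule. The ligand genes Fasl, Cd40lg, Cd70 and Lta had 0 counts in both libraries.

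**Figure D4:**
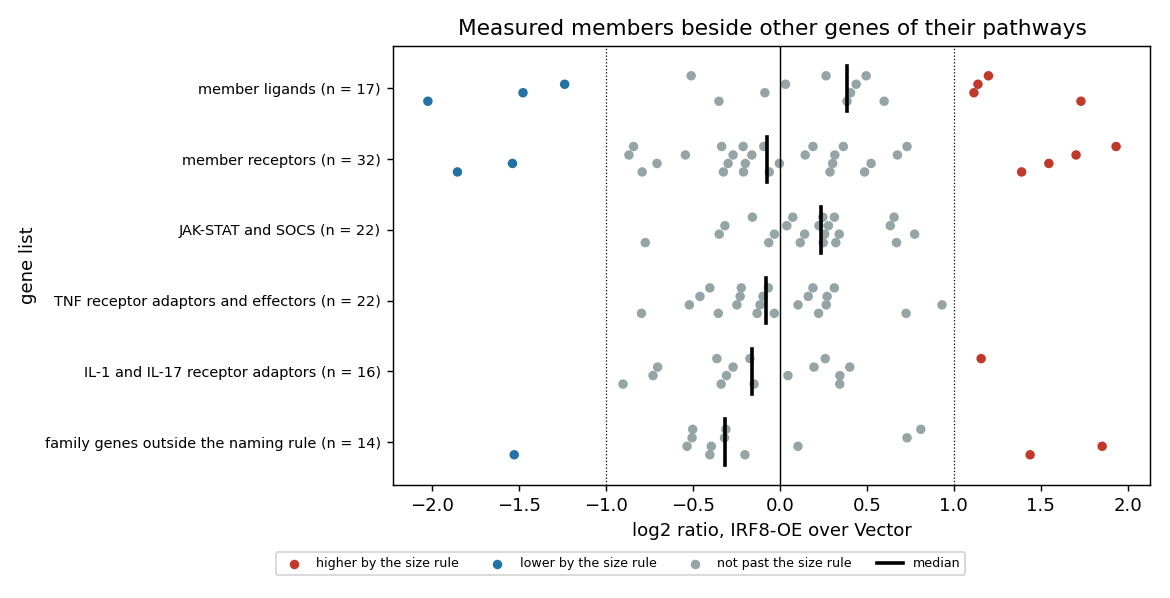
Log2 ratio of the IRF8-OE library over the Vector library (horizontal axis) for measured member ligands, member receptors and 4 lists of related genes, with a point per gene, a bar at each median and dotted lines at the fold of 2. The medians run from 0.39 for ligands to -0.31 for the family genes outside the naming rule, and the points of the JAK-STAT and TNF adaptor lists lie between the dotted lines.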

How the data were processed

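The deposited values are whole-number read counts per gene for 1 library of each line, not normalized. The authors used HISAT2 2.0.5 and featureCounts 1.5.0-p3 with genome build mm10, per the submitters' processing notes, with strand setting, treatment of multiply matching reads and annotation release not given in the sources used here. The gene length in the deposited table was used for levels per kilobase. Groups came from the lentivirus in the labels, and columns were matched by name.

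TMM factors came from edgeR 4.0.16 in R 4.3.3, and CPM were computed on the scaled library sizes. Ratios, intervals and figures were made with scipy 1.17.1, pandas 2.3.3, numpy 2.4.6 and matplotlib 3.10.9 under Python 3.11.15. Ratios carry exact 95% Clopper-Pearson intervals on the share of both libraries' counts, and levels exact Poisson intervals. Intervals and limits of 3 counts cover counting error only, and PCR copies are not independent molecules. With 1 library a group no test across genes was run. 

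The members, gene lists and motifs were chosen with earlier results of these data known. Named were members past the size rule or at 10 CPM or more in either library, partners or neighbours of those with their counts, up to 6 list genes past the rule, and Irf8. Jak2, Socs7, Socs3, Map3k14, Tnfaip3, Tab1, Fas and Cd40 were named after their values were seen. Shared 32-base words were counted against GENCODE M21 transcripts, and exon overlap against its annotation, in which 116 of the 130 members have the coordinates of the deposited table.

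The alternatives were scaling by total counts or DESeq2 1.42.0 size factors, no filter or a mean of 5 CPM, a fold of 1.5, a 99.9% interval, and removal of a running median over 1001 genes ordered by level.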

Additional observations from a re-analysis of the deposited data

How the results depend on the processing

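No paired analysis was possible because each group has 1 library, and no replicate could be left out. Of the 13 members past the size rule, 13 passed with scaling by total counts and 13 with DESeq2 size factors, and the same genes passed in each. Without a filter on low values 15 members passed, Tnfsf10 and Il1f9 being added, while 873 genes of the table were higher and 800 lower. With a mean of 5 CPM, 6 of the 13 remained: 1 ligand and 2 receptors higher, 3 ligands and 0 receptors lower (221 and 266 of all genes), and the ligand median was -0.35. The other 7 lie below that level. A fold of 1.5 gave 20 members, with 6 receptors lower, and 1302 genes higher and 1175 lower in the table. With the stricter interval 12 passed, without Il18. With the expression trend removed, 2 ligands were higher (Il18 and Tnfsf15 were lost), Il1rap was added, and the medians were 0.23 for ligands and -0.21 for receptors. Scaling by total counts moved the median of all genes to 0.13, of ligands to 0.51 and of receptors to 0.047, and 66.1% of all calls were then higher, against 54.0% with TMM and 41.6% with the trend removed. Over the 3 other scalings (total counts, DESeq2 size factors, trend removed), 105 ratios of 35 members were recomputed. The 35 were the 13 past the rule and others at 10 CPM or more in either library, so Il1rap was not among them. Of the 105 ratios, 103 kept their side of the size rule, which includes those of members that passed in no setting. The 2 that did not were those of Il18 and Tnfsf15 with the trend removed. Depth limits the scarce genes most: Il18 and Tnfrsf23 rest on under 20 counts in the Vector library, as does Il20rb, and Il20ra on 15 in the IRF8-OE library. What single cultures vary by was not measured here.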
